A study of Mus musculus with 2 samples.

Results

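This section describes genes that mark the zones of the liver lobule other than cytochrome P450s, in 1 pool of liver RNA from calorie-restricted (CR) mice and 1 from mice fed ad libitum (AL). The markers were chosen by symbol: Glul, Oat, Axin2, Tbx3, Rhbg and Lgr5 for hepatocytes around the central vein (pericentral), and Cdh1, Hal and Sds for those around the portal tract (periportal). Of the 9 genes, 8 had at least 1 probe set that the platform's annotation assigns to that gene alone, out of 18193 genes so covered. Sds, which encodes serine dehydratase, had none and was not analysed here, so the periportal side rested on Cdh1 and Hal.

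All mice were male C57BL/6J, an inbred laboratory strain, housed individually from 8 weeks of age and 5 months old at collection. The CR mice received 20% less food in week 1 and 40% less for 11 weeks after it, whereas the AL mice ate freely for the same 12 weeks. RNA of 3 livers per diet was pooled in equal amounts and hybridised to 1 Affymetrix array. With 1 array per diet there was no replicate and no test, the variation from mouse to mouse was not measured, and the precision is limited by the number of arrays.

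Blood flows through the lobule from the portal tract to the central vein, and hepatocytes along this path divide the work of the liver. Endothelial cells of the central vein secrete Wnt ligands and an R-spondin, which keep beta-catenin active in the nearest hepatocytes. These cells take up ammonium and fix it in glutamine, whereas periportal hepatocytes make urea and glucose and break down amino acids such as histidine and serine. In RNA of whole liver, a smaller zone and less RNA per cell in a zone cannot be told apart.

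Cdh1, a periportal marker, was 2.48-fold lower in the CR pool. Hal, the other periportal marker, was 1.36-fold lower. It lay within 1.5-fold of the AL pool, as did the pericentral markers, on either side. Values are RMA intensities on a linear scale, and a difference is log2 intensity in CR minus that in AL. A gene is represented by its brightest probe set and counted as measured when the higher of its 2 intensities reached 7.38, the median of all values. All 8 genes passed this limit, as did 12 of their 15 probe sets. No marker was at least 2-fold higher in CR, where 1.80% of 12644 measured genes were, and 1, Cdh1, was at least 2-fold lower, where 2.79% were.

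The arrays had median intensities of 7.42 in CR and 7.35 in AL, and the median difference over measured genes was -0.02. Shifting the arrays to equal hybridisation control spikes moved that median to -1.04, and to -0.40 with the cre spike alone, so every difference here is relative to the typical gene. The beta-actin and Gapdh control probe sets were lower in CR by this scale, from -1.61 to -0.67. Their 3' to 5' signal ratios were 89.7 and 53.2 in CR, against 83.5 and 46.9 in AL, a strong 3' bias in both pools. The 5' sets were dim, between 14.9 and 28.2. The middle sets stood at -1.61 for beta-actin and -1.11 for Gapdh, against -0.73 and -0.67 for the 3' sets. By these sets the 3' bias was stronger in CR than in AL. Among 4924 genes with several measured probe sets, the median SD between the differences of 1 gene was 0.288. The liver markers Alb, albumin, and Ttr, transthyretin, had intensities of 11794 and 12700 in CR, against 12765 and 13299 in AL. The other Ttr probe sets stood at -0.14, -0.63 and -1.60, the dimmest with 1477 in CR and 4489 in AL, and the hepatocyte receptor gene Asgr1 stood at 0.43, so the hepatocyte markers were not flat on every probe set. Over the 4 measured hepatocyte markers the median difference was -0.03, with 2 above 0 and 2 below.

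**Figure D1:**
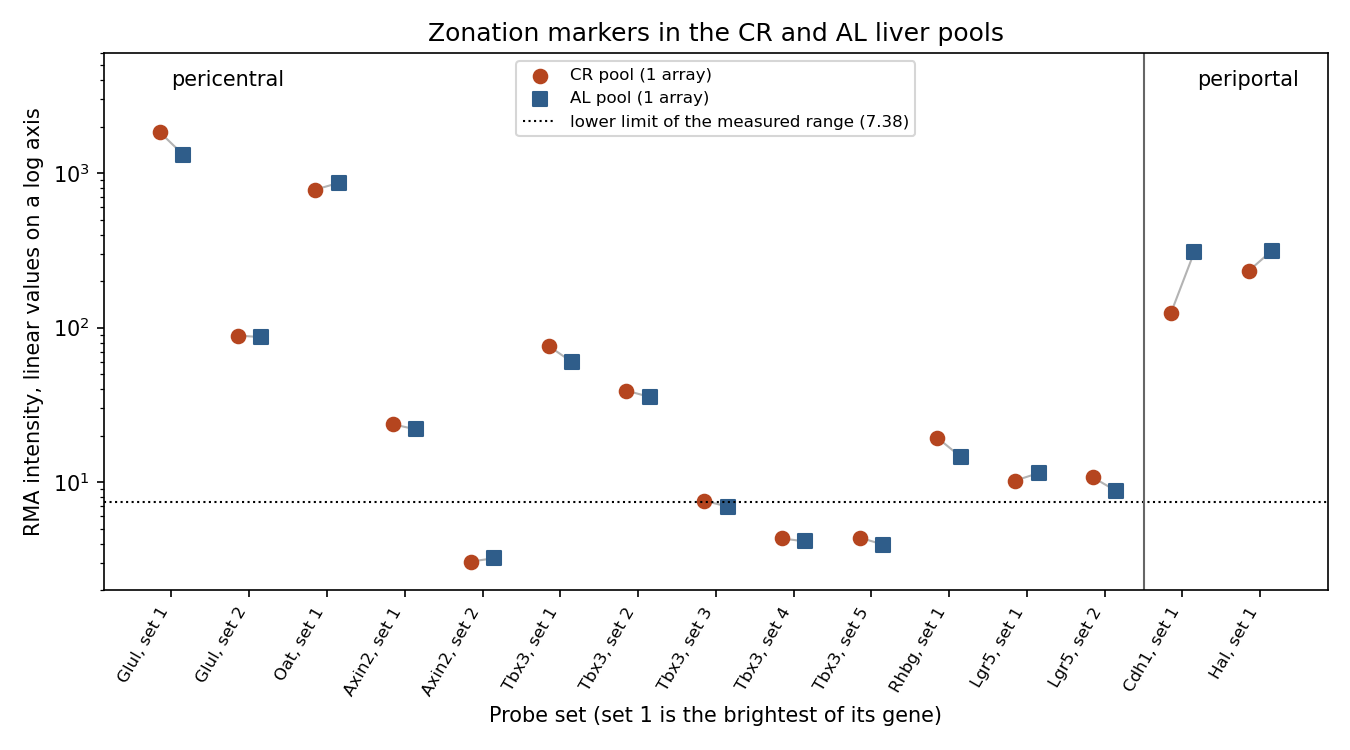
Intensity of the 15 probe sets of the 8 markers in the CR pool (circles) and the AL pool (squares), linear RMA values on a log axis, 1 array each. Cdh1 stood at 124 in CR and 307 in AL, the widest gap, and 3 probe sets of Axin2 and Tbx3 lay below the limit of 7.38 in both pools.

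Glul encodes glutamine synthetase, which joins ammonium to glutamate in the hepatocytes next to the central vein. Its brighter probe set, 1426236_a_at, had an intensity of 1842 in the CR pool and 1319 in the AL pool, 1.40-fold higher in CR. Its other probe set, 1426235_a_at, had 88.8 in CR and 86.9 in AL. The differences were 0.48 and 0.03, so the higher value of CR rested on the brighter probe set. Of 432 measured genes of similar mean intensity, within 1 log2 unit, the central 95% lay between -1.53 and 1.04, and the difference of Glul stood at percentile 86.1.

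Rhbg encodes a membrane channel of the Rh family that carries ammonium into the same hepatocytes. Its probe set had an intensity of 19.3 in CR and 14.6 in AL, a difference of 0.41 at percentile 91.0 of 5755 genes of similar intensity. Oat encodes ornithine aminotransferase, a mitochondrial enzyme that turns ornithine into a precursor of glutamate. Its probe set had an intensity of 782 in CR and 866 in AL, a difference of -0.15, opposite in sign to Glul and Rhbg. All 3 nitrogen genes lay inside the central 95% of genes of their intensity.

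Tbx3 encodes a T-box transcription factor that beta-catenin signalling induces in liver. Of its 5 probe sets, the brightest had an intensity of 76.1 in CR and 59.8 in AL, and the next 39.1 in CR and 35.6 in AL. The differences were 0.35 and 0.14. Another had 7.57 in CR and lay below the limit in AL, at 6.95, and the last pair lay below it in both pools. Every probe set of Tbx3 that reached the limit in both pools was thus higher in CR, by less than 1.5-fold.

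Axin2, a scaffold of the complex that degrades beta-catenin and itself a feedback target of the pathway, was measured by 1 probe set. It had an intensity of 23.6 in CR and 21.9 in AL, a difference of 0.11. The other Axin2 probe set lay below the limit in both pools, at 3.06 in CR and 3.21 in AL. Lgr5, the R-spondin receptor of Wnt-responsive cells, had 10.2 in CR and 11.4 in AL on one probe set and 10.7 in CR and 8.74 in AL on the other. Their differences, -0.16 and 0.29, had opposite signs, so no direction can be given for Lgr5, and both probe sets lay close to the limit.

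Cdh1 encodes E-cadherin, the adhesion molecule of epithelial junctions, which is more abundant in periportal than in pericentral hepatocytes and is also made by bile duct cells. Its single probe set, 1448261_at, had an intensity of 124 in CR and 307 in AL, 2.48-fold lower in CR. The difference of -1.31 stood at percentile 2.11 of 1892 measured genes of similar intensity, just outside their central 95%, which ran from -1.22 to 1.14. With 1 probe set there is no second measure of Cdh1 on these arrays. Its difference lay within the range of the beta-actin and Gapdh control probe sets, -1.61 to -0.67. The part of RNA quality in the value of Cdh1 was not tested.

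No measured cholangiocyte marker was at least 2-fold different, a count to be read against 1.80% of all measured genes higher and 2.79% lower. Of 6 listed, 5 had a probe set and 3 were measured, with intensities that summed to 49.9 in CR and 49.8 in AL. The duct keratin Krt19 lay below the limit in both pools, at 4.95 in CR and 5.86 in AL. The progenitor and duct adhesion gene Epcam stood at 22.0 in CR and 27.2 in AL, and the duct transcription factor Sox9 at 20.4 in CR and 16.7 in AL. Krt7, another duct keratin, had 7.49 in CR and lay below the limit in AL. The part of bile duct cells in the value of Cdh1 was not tested.

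Genes listed as partners in cadherin adhesion were within 2-fold. Of all measured genes, 1.80% were at least 2-fold higher and 2.79% lower. Of 5 measured genes in this list, 2 lay above 0 and 3 below, with a median of -0.15. Those above 0 were Cdh2, itself a cadherin gene, and the alpha-catenin gene Ctnna1, named after its values were seen. Measured probe sets of Ctnna1 lay on both sides of 0, from -0.28 to 0.50. Ctnnb1, which encodes beta-catenin, had an intensity of 648 in CR and 799.9 in AL. The p120 catenin gene Ctnnd1 had 19.8 in CR and 26.4 in AL, and the plakoglobin gene Jup 30.5 in CR and 33.8 in AL. Their differences were -0.30, -0.42 and -0.15, all smaller in size than that of Cdh1. The other measured probe sets of Ctnnb1 and Ctnnd1 were lower still, at -0.54 and -0.83. That of Ctnnd1 had 7.49 in AL and lay below the limit in CR, at 4.23. Cdh2, the N-cadherin gene, which hepatocytes also express, was outside the naming rule and is given after its values were seen, at 473 in CR and 457 in AL.

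Hal encodes histidase, which starts the breakdown of histidine by turning it into urocanate. Its single probe set, 1418645_at, had an intensity of 232 in CR and 315 in AL, 1.36-fold lower in CR. The difference of -0.44 stood at percentile 17.0 of 1558 genes of similar intensity, inside their central 95%.

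On brightest probe sets the later steps of histidine breakdown lay on both sides of 0, with Uroc1 alone above it. Uroc1, which encodes the urocanase that acts next, had an intensity of 378 in CR and 254 in AL on that probe set, a difference of 0.58. Its other probe set stood at -0.16, so no direction can be given for Uroc1. Amdhd1, the imidazolonepropionase gene of the following step, had 413 in CR and 647 in AL, a difference of -0.65, with its other probe set at -0.09. Ftcd, which passes the last carbon to folate, had 481 in CR and 606 in AL, a difference of -0.33. Uroc1 and Ftcd were named after their values were seen, to complete the pathway. Over 8 measured genes of histidine and serine breakdown, 4 lay above 0 and 4 below, and the median was -0.17. None was 2-fold different, where 1.80% of all measured genes were higher and 2.79% lower by that much. Others of the 8 were the glyoxylate aminotransferase gene Agxt, at -0.71, and Gldc of the glycine cleavage system, at -0.44.

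The promoters of Glul and Hal are shown because these genes stood on opposite sides of 0 and because, of the markers with a promoter in the RefSeq table, Hal held and Glul lacked the core letters that TCF/LEF factors, the DNA-binding partners of beta-catenin, recognise. Each sequence is the 250 bases before the annotated start, 5' to 3' on the gene's strand (GRCm38.p6, RefSeq), for Glul chr1:153899679-153899928 and for Hal chr10:93488518-93488767, both on the plus strand. Capitals mark a match to CTTTGAT or CTTTGAA on either strand.
Glul: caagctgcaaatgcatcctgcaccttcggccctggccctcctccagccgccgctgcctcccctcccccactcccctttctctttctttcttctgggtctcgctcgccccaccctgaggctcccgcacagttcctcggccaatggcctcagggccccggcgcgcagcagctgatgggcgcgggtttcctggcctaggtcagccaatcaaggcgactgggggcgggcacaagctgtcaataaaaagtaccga
Hal: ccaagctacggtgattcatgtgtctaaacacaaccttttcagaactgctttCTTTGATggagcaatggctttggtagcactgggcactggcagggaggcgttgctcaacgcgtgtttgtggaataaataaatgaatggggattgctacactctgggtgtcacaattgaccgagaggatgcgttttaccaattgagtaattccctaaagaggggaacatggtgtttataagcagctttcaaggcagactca
The match in Hal spans bases 199 to 193 before the start. Promoters of 4 markers were in the table, those of Glul, Oat, Axin2 and Hal, and 1 of the 4 held a match, where 7.48% of 32851 promoters did. The match is a description of letters, and its absence says only that these letters are not in the window.

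Set side by side, the pericentral markers had a median difference of 0.23 and the periportal markers one of -0.88. On brightest probe sets the 6 pericentral genes ran from -0.16 to 0.48 and the 2 periportal genes from -1.31 to -0.44. These ranges of the chosen markers did not overlap. The lowest pericentral value was that of Lgr5, whose other probe set stood at 0.29. Of these markers, only Cdh1 lay outside the central range of measured genes of similar intensity. How often so few genes taken at random would separate in this way was not tested. The median over all measured genes was -0.02, and 47.4% of them lay above 0. Of the pericentral genes 4 lay above 0 and 2 below, but 2 of 6 lay above 0 after scaling on cre and 0 of 6 after scaling on all hybridisation controls. Over the 10 measured pericentral probe sets, 8 lay above 0, and the median was 0.13. The gap between the zone medians, 1.10, does not change under a shift of a whole array, but with Cdh1 left out and Hal alone on the periportal side it was 0.67.

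**Figure D2:**
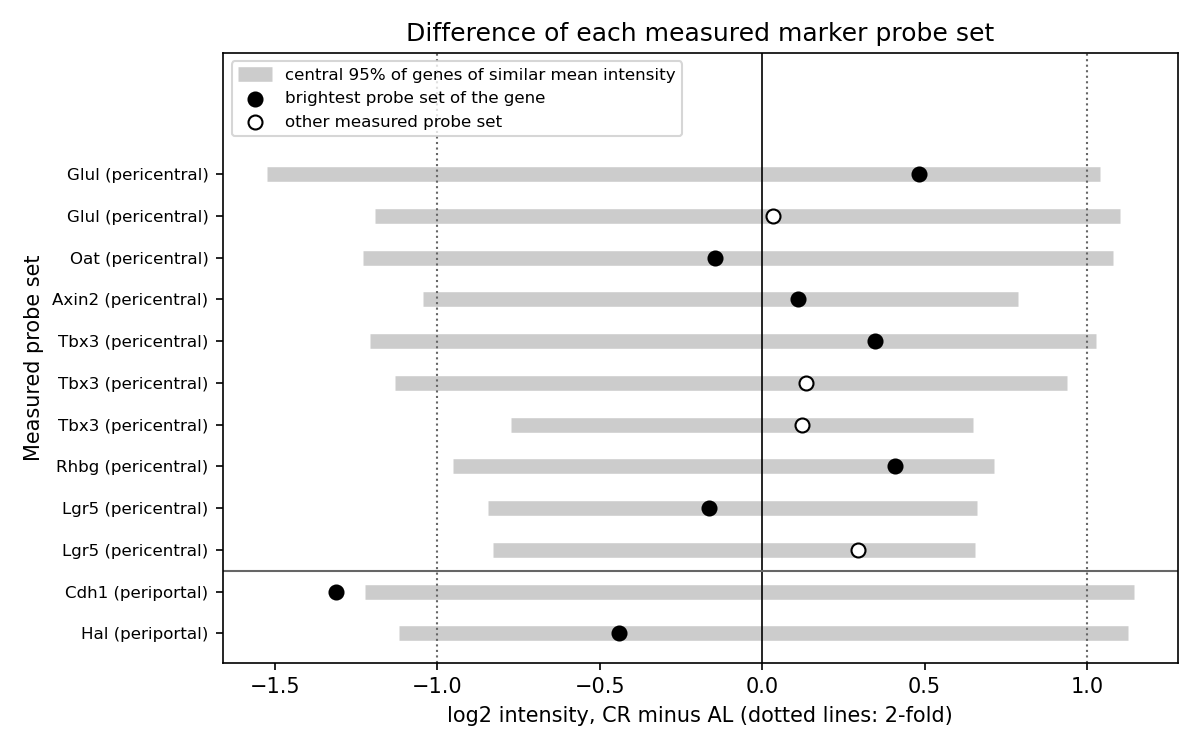
Difference of each of the 12 measured marker probe sets (log2 intensity, CR minus AL), with the brightest of each gene filled. Grey bars span the central 95% of measured genes of similar mean intensity, and Cdh1, at -1.31, is the 1 probe set outside its bar.

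A wider set of zonal genes did not show the same gap. Of 15 other measured pericentral genes outside the P450s, 7 lay above 0 and 8 below, with a median of -0.15. Of 15 other measured periportal genes, 8 lay above 0 and 7 below, with a median of 0.08, which turned to -0.01 without probe sets of types _x_at, _s_at and _a_at, which can match several transcripts, to -0.29 after scaling on cre and -0.94 on all hybridisation controls. None of the 30 was at least 2-fold different on its brightest probe set, a count to be read against 1.80% of all measured genes higher and 2.79% lower. The pericentral median was thus below the periportal one, a gap of -0.23, opposite in sign to that of the markers. Dimmer probe sets of Pck1, Cpox and Etnppl, named after their values were seen, stood at 1.36, 1.27 and 1.25. The only probe set of the periportal Ass1, named likewise, lay near the limit, at 11.0 in CR and 13.0 in AL.

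Within the wider pericentral list the genes diverged. Rgn, which encodes the calcium-binding lactonase regucalcin, had an intensity of 1166 in CR and 2145 in AL, a difference of -0.88. Gulo, the last enzyme of vitamin C synthesis in mice, had 148 in CR and 243 in AL, a difference of -0.71. The nuclear receptor gene Nr1i3, or CAR, had 66.8 in CR and 38.5 in AL, a difference of 0.79. Slc1a2, the glutamate transporter found beside glutamine synthetase, was outside the naming rule and is given after its values were seen. Its brightest probe set had 129 in CR and 71.8 in AL, a difference of 0.85, and the next one stood at 0.74, but a dimmer one stood at -0.36.

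The wider periportal list was as mixed. Asl, which encodes the argininosuccinate lyase of the urea cycle, had an intensity of 454 in CR and 265 in AL, a difference of 0.78. The steroid dehydrogenase gene Hsd17b6 had 175 in CR and 117 in AL, a difference of 0.58. Ctsc, which encodes the lysosomal protease cathepsin C and is also made by immune cells, had 108 in CR and 206 in AL, a difference of -0.93, and its 3 probe sets lay between -0.93 and -0.86. Kupffer cell markers were lower beside it, with 5 of 5 measured below 0, a summed intensity of 1032 in CR and 1208 in AL and a median of -0.57. Neutrophil markers had 3 of 3 measured below 0 and sums of 29.3 in CR and 97.1 in AL, with the calprotectin genes S100a8 and S100a9 at -2.29 and -1.75. Stellate cell markers had 5 of 6 measured below 0 and a median of -0.18, although their sum was 693 in CR and 618 in AL, since Reln stood at 0.31. The part of immune cells in the value of Ctsc was not tested.

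Genes that handle glutamine, ornithine and ammonium along with Glul, Oat and Rhbg had a median of 0.03 over 13 measured genes. Of these, 7 lay above 0 and 6 below. None was 2-fold different, where 1.80% of all measured genes were higher and 2.79% lower by that much. The median was below 0 when probe sets were averaged, without probe sets of types _x_at, _s_at and _a_at, or after either scaling on spikes. Glud1, glutamate dehydrogenase, which releases ammonium from glutamate, had an intensity of 546 in CR and 1072 in AL, a difference of -0.97, although its other probe set stood at -0.26. Nags, which makes the activator of the first urea cycle enzyme, had 13.4 in CR and 20.6 in AL, a difference of -0.63. Cps1, that first enzyme, was named after its values were seen and had 5997 in CR and 6185 in AL. The gene of the urea cycle with the largest difference in the list was Asl, at 0.78.

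The ligands that set the pericentral zone were dim on these arrays. Wnt2 had an intensity of 12.3 in CR and 15.7 in AL, and the R-spondin gene Rspo3 had 25.3 in CR and 22.5 in AL. Wnt9b reached the limit in CR alone, at 7.80 in CR and 6.00 in AL. These 3 ligand genes were named after their values were seen. Measured markers of liver endothelium summed to 387 in CR and 437 in AL, with 3 of 5 above 0. They were listed for liver endothelium and not for the central vein, the source of these ligands. The brightest of them, Clec4g, stood at -0.50, and its other probe set at 0.20.

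Receptors and feedback targets of the Wnt pathway also lay on both sides of 0. Over 15 measured genes of ligands, receptors and targets, 8 lay above 0 and 7 below. None was 2-fold different, where 1.80% of all measured genes were higher and 2.79% lower by that much. The median was 0.17, or -0.10 with all probe sets of each gene averaged, -0.20 after scaling on cre and -0.85 on all hybridisation controls. The Frizzled receptor gene Fzd4 had an intensity of 56.3 in CR and 33.2 in AL, a difference of 0.76, with its other measured probe set at 0.15. Fzd5 had 17.8 in CR and 11.2 in AL, a difference of 0.66, with its other at 0.02. Rnf43, a ubiquitin ligase that removes Frizzled receptors, had 10.1 in AL and lay below the limit in CR, at least 1.37-fold lower.

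Of 10 measured genes of the beta-catenin core and of zonation regulators, 6 lay above 0 and 4 below, with a median of 0.19 that turned to -0.05 with all probe sets averaged, to -0.18 on cre and to -0.82 on all hybridisation controls. Tcf7l2, the main TCF factor of liver, was at least 2-fold higher on its brightest probe set, where 1.80% of all measured genes were, with 27.3 in CR and 11.2 in AL, a difference of 1.28. Its other measured probe sets stood at -0.74, 0.15 and -0.26, so no direction can be given for the gene. Apc, the scaffold whose loss activates beta-catenin, stood at 89.9 in CR and 84.2 in AL, a difference of 0.09, with its other measured probe set at 0.37. Bcl9, a co-activator, had 7.80 in CR and lay below the limit in AL, at least 1.06-fold higher. Of the other genes counted above 0, Gsk3b ran from -1.20 to 0.94 over its measured probe sets, Dvl1 from -0.60 to 0.54 and Tcf7l1 from -0.05 to 0.45. Hnf4a, counted below 0, ran from -0.46 to 0.07. These genes were named after their values were seen.

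**Figure D3:**
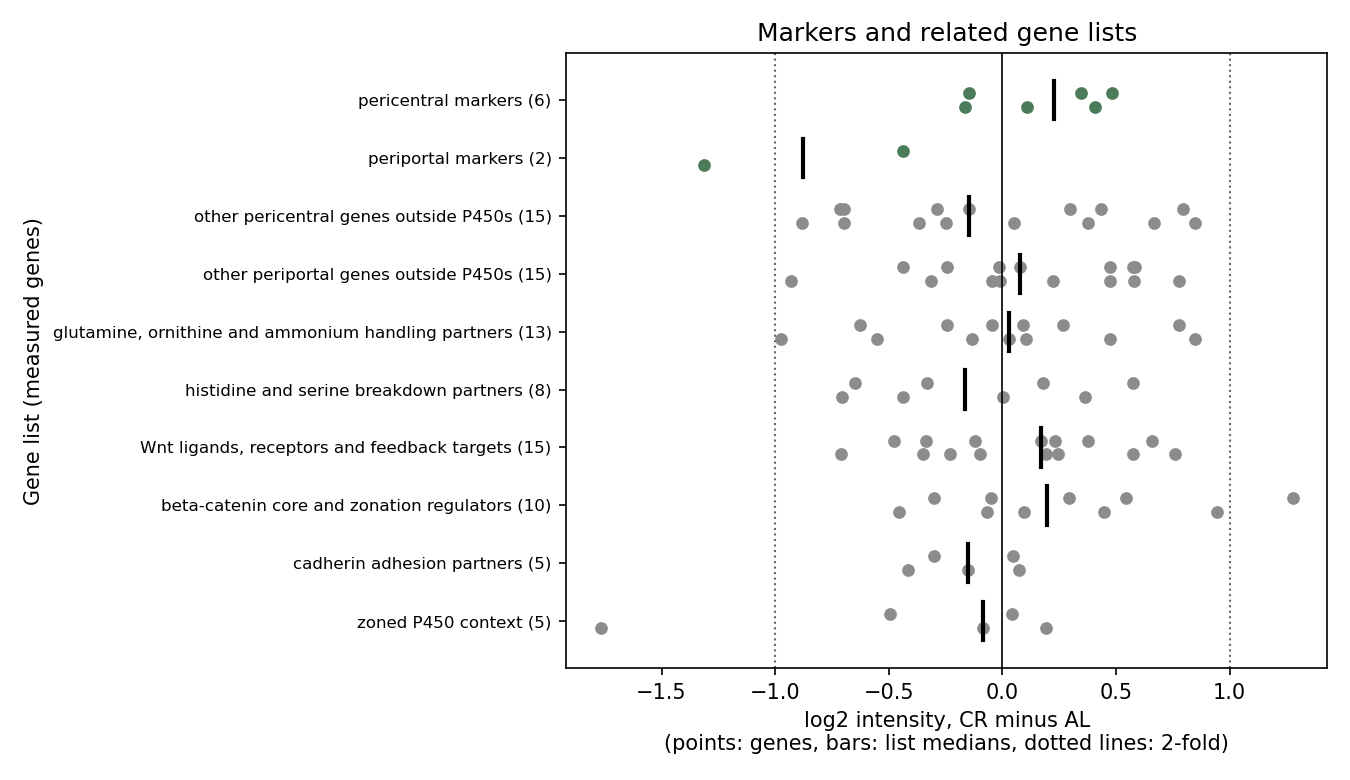
Differences (log2 intensity, CR minus AL) of measured genes in the 2 marker groups and in 8 related lists, 1 point per gene on its brightest probe set, with list medians as bars. The periportal markers have the lowest median, -0.88, and the wider pericentral and periportal lists have medians of -0.15 and 0.08, relative to the typical gene.

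Zoned P450 genes, for comparison, held 1 gene at least 2-fold lower among 5, where 2.79% of all measured genes were. It was the periportal Cyp2f2, with an intensity of 540 in CR and 1837 in AL, a difference of -1.77, on a single probe set of type _a_at, so that the count was 0 without such types. The pericentral Cyp1a2 and Cyp2c37 stood at -0.50 and 0.19. The pericentral Cyp2e1, named after its values were seen, had 8323 in CR and 8818 in AL.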

How the data were processed

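Affymetrix arrays measured liver RNA of 1 CR pool and 1 AL pool. Per the submitters' processing notes the deposited intensity values were made by the authors with RMA. They are linear, since the largest was 18092. The software version, options and genome build are not given in the sources used here. Intensities were transformed to log2 and AL was subtracted from CR.

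Probe sets were named from the platform annotation: of 45101, 34945 had 1 symbol, 932 several and 9160 none, besides 64 controls. The markers and lists were chosen with earlier results of these data known. The naming rule took all marker probe sets and, from each list of related genes, the 3 genes of largest difference whose measured probe sets had 1 sign and all genes of at least 2-fold. Cell type marker lists are given by counts and sums, with some genes, chosen after their values were seen, as examples. Some genes, such as Asl and Ctnnb1, stand in several lists, so the lists are not separate measures. No likeness between genes was ranked, since 2 arrays give 1 difference. Columns of other samples were absent. The steps were tested on simulated data. Alternatives varied the probe set rule, limit, centring, loess trend (span 0.4), spike scaling, pseudocount and threshold. The work used Python 3.11.15 with pandas 2.3.3 and numpy 2.4.6, loess from statsmodels 0.14.6, and figures from matplotlib 3.10.9.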

Additional observations from a re-analysis of the deposited data

How the results depend on the processing

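Over 9 alternative settings, Cdh1 stayed at least 2-fold lower, between -2.33 and -1.26, and Hal stayed below 0, between -1.46 and -0.41. Most of these settings could not have raised either value. Each gene has 1 probe set of type _at above either limit, so the probe set rules and limits left both unchanged. The spike scalings could only lower them. Centring, the loess trend and the pseudocount gave -1.33, -1.28 and -1.26 for Cdh1 and -0.45, -0.41 and -0.43 for Hal. The gap between the zone medians of the markers lay between 0.99 and 1.11 over 10 settings, 1 of them, counting each measured probe set, chosen after seeing the data. With Cdh1 left out, also chosen then, it was 0.67. Centring and the spike scalings cannot change this gap, and the changed limits left it at 1.10. The probe set rules could move its pericentral side alone. The gap between the wider lists lay between -0.308 and -0.200 over 9, and the settings that left the marker gap unchanged left this one at -0.227. Scaling on all hybridisation controls gave medians of -0.79 for pericentral and -1.89 for periportal markers and 4 markers at least 2-fold different. Scaling on cre alone gave medians of -0.15 and -1.25. Both shift every gene by 1 value, 1.02 and 0.37. Glul and Rhbg changed sign under the first alone, Axin2 and Tbx3 under both, and Lgr5 when its probe sets were averaged, at 0.07. Without probe sets of types _x_at, _s_at and _a_at no Glul probe set remained. All genes at least 2-fold different numbered 580, against 340 with probe sets averaged, 6890 and 1126 under the 2 spike scalings, 371 with a pseudocount of 8 and 2055 at 1.5-fold. The cause of these changes was not tested beyond the construction of each setting. No paired analysis was possible because each diet had 1 pool. Leaving out a replicate was not possible for the same reason. The probe sets of Lgr5 and Wnt9b lie close to the limit, and no background level or detection call was used to judge them.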
